A study of Homo sapiens with 83 samples.

Results

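Neuroblastoma cells are described by 2 sets of identity genes, an adrenergic set and a mesenchymal set, and the RNA levels of 34 such genes were examined in SHEP and SKNAS cells with N-MYC inactive or active. The 17 adrenergic and 17 mesenchymal genes were fixed by name, and each was found on 1 row of a table of 60237 genes. Both are human neuroblastoma lines that constitutively express N-MYC-ER, in which N-MYC is joined to a hormone-binding domain, and 4-hydroxytamoxifen (4OHT) activates the fusion protein. Cells were given 4OHT (MYC-ON) or ethanol as the vehicle (MYC-OFF), all were given dexamethasone 24 h later, and RNA was collected every 4 h from CT24, where CT is the number of hours after dexamethasone. The 28 SHEP MYC-OFF and 28 SHEP MYC-ON libraries form 2 replicate time series of 14 CTs, and 14 SKNAS MYC-OFF and 13 SKNAS MYC-ON libraries form 1 time series, which ends at CT76 in MYC-OFF and at CT72 in MYC-ON. Every cell in both arms therefore carried the overexpressed fusion gene and received dexamethasone, and no library here came from parental cells or from cells without dexamethasone.

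Neuroblastoma arises from the sympathoadrenal lineage of the neural crest. Adrenergic cells keep the program of that lineage: PHOX2A, HAND, GATA, ISL1 and TBX2 transcription factors drive each other and the enzymes of catecholamine synthesis. Mesenchymal cells resemble neural crest or stromal cells, with PRRX1, RUNX, SNAI, TWIST and ZEB factors, vimentin and fibronectin, and cells of a tumor or culture can move between these states. N-MYC is amplified in many high-risk tumors and sits over the promoters and enhancers of active genes.

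Levels are in TPM, transcript abundances scaled to a fixed total in each library, which are corrected by transcript length and so can be compared between genes. Transcripts of MYCN, which include the N-MYC-ER construct if its coding sequence was counted there, were abundant in all 4 groups, with MYC-OFF and MYC-ON means of 555 ± 70.8 and 377 ± 69.5 TPM in SHEP (SD, n = 28 each) and 547 ± 341 and 365 ± 297 TPM in SKNAS (n = 14 and 13). The SKNAS libraries were less alike than the SHEP libraries. The median of log2(TPM + 1) over expressed genes lay between 3.93 and 4.17 in all SHEP libraries and between 2.76 and 4.38 in SKNAS, where 10 MYC-OFF and 3 MYC-ON libraries had a median of at least 3.8 and 4 MYC-OFF and 10 MYC-ON libraries a lower one. MYCN moved with this median: in SKNAS MYC-OFF it ranged from 516 to 987 TPM in the 10 libraries of high median and from 29.1 to 179 in the other 4, and in MYC-ON from 633 to 1046 in 3 libraries and from 13.1 to 464 in 10. The SKNAS changes below are therefore given also with the library median in the model or within the bands of the median, and the part of the median in these results was not tested. RNA from a culture cannot tell fewer cells of a type from less RNA per cell.

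The 2 lines differed in which identity genes they expressed at all, and neither showed the complete adrenergic program. A gene whose group mean was under 1 TPM is called silent here. Of the 17 adrenergic genes, 10 were silent in MYC-OFF and 11 in MYC-ON cells of SHEP, and 5 and 7 in those of SKNAS. Of the 17 mesenchymal genes, 3 and 2 were silent in SHEP and 2 and 4 in SKNAS, and of all 60237 genes 76.3% and 76.3% were in SHEP and 76.6% and 77.8% in SKNAS. RUNX2 and SIX4 were silent in SKNAS MYC-ON alone, and their levels ran with the median expression of the library: among SKNAS libraries of high median RUNX2 averaged 1.22 TPM in MYC-OFF and 1.16 in MYC-ON and SIX4 2.17 and 2.01, and among those of low median 0.469 and 0.373, and 0.468 and 0.497. TH, DBH and STMN2 of the adrenergic set and MEOX1 and MEOX2 of the mesenchymal set were silent in all 4 groups. The summed level of the adrenergic genes ran from 66.7 to 98.6 TPM in SHEP MYC-OFF libraries and from 424 to 1140.4 in SKNAS MYC-OFF libraries, and that of the mesenchymal genes from 4031 to 5396 in SHEP MYC-OFF and from 889 to 2437 in SKNAS MYC-OFF. Vimentin alone made up most of the mesenchymal sum.

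**Figure D1:**
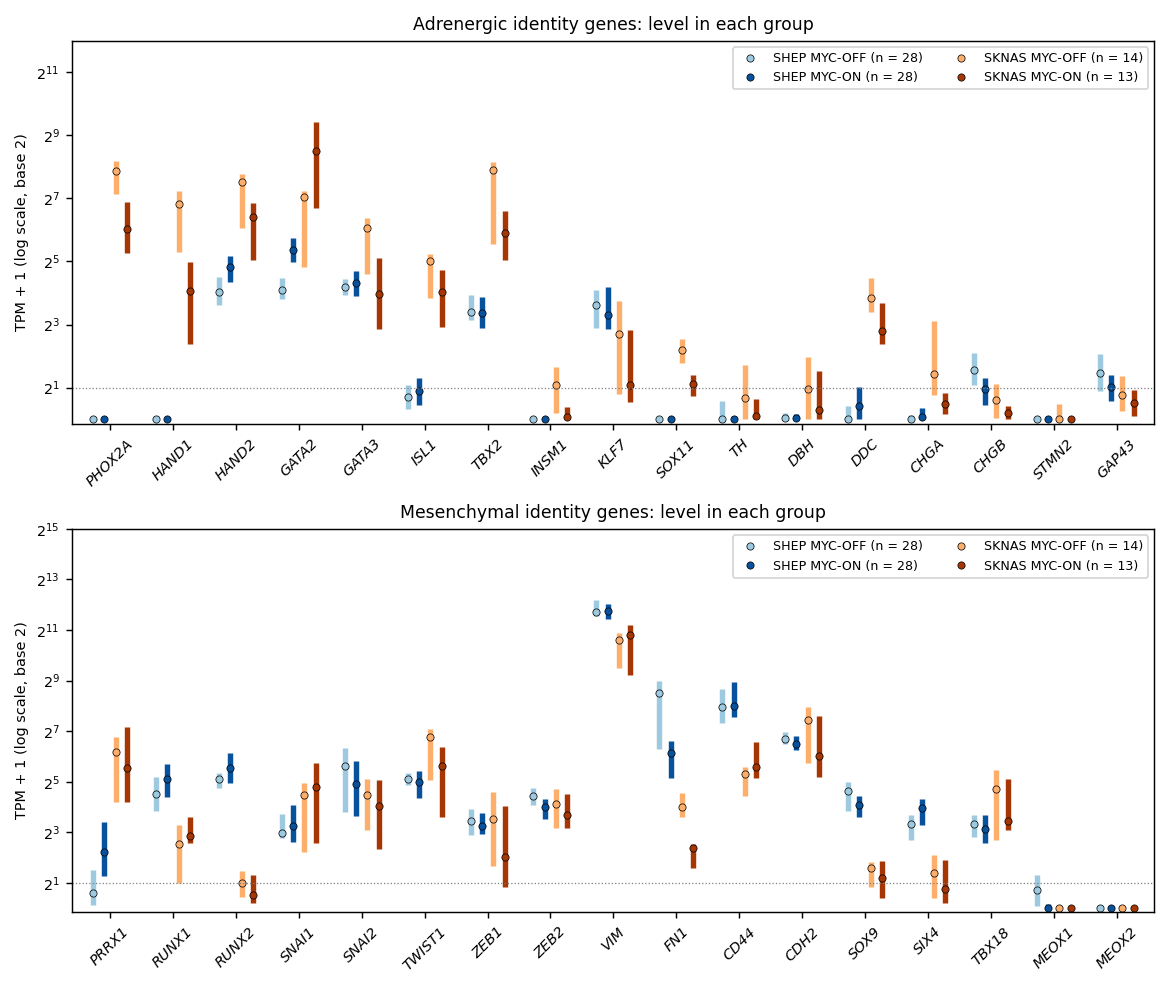
Level of the 17 adrenergic (top) and 17 mesenchymal (bottom) identity genes in each group, as TPM + 1 on a base 2 log axis. Circles are medians over libraries, vertical bars run from the lowest to the highest library, and the dotted line marks 1 TPM. PHOX2A, HAND1 and SOX11 lie at the floor in SHEP and above it in SKNAS, VIM is the highest of the 34 in every group, and TH, DBH, STMN2, MEOX1 and MEOX2 have means under 1 TPM throughout.

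Markers of noradrenergic cells were only partly present. TH, which starts catecholamine synthesis, had MYC-OFF and MYC-ON means of 0.0574 ± 0.107 and 0.00462 ± 0.0176 TPM in SHEP, and of 0.754 ± 0.662 and 0.136 ± 0.161 in SKNAS. DBH, which makes noradrenaline, had 0.0336 ± 0.0442 and 0.0297 ± 0.0299 TPM in SHEP, and 0.939 ± 0.808 and 0.501 ± 0.608 in SKNAS. In SKNAS libraries of high median DBH averaged 1.301 TPM in MYC-OFF and 1.42 in MYC-ON, above the level called silent, and in those of low median 0.0357 and 0.226. The label of an adrenergic neuroblastoma cell thus held in SKNAS for PHOX2A, HAND2 and GATA3 but not for TH, and for DBH at a low level in libraries of high median. STMN2, a microtubule regulator of growing neurites, was listed at 0 in 27 of 28, 28 of 28, 9 of 14 and 11 of 13 libraries.

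Markers of other cell types were examined as lists. Of 10 neural crest and Schwann cell precursor genes, SOX10, SOX2 and CDH19, which define these cells, were at or near 0 in every group. NGFR, a neurotrophin receptor, averaged 24.2 TPM in MYC-OFF and 3.38 in MYC-ON cells of SKNAS and was near 0 in SHEP. SHEP still expressed 2 genes of this list in each MYC state, which are not named here, and the list summed to 7.12 to 13.3 TPM. For SKNAS the count was 2 without and 1 with active N-MYC, and the sums ran from 1.93 to 43.3 TPM. Of 8 epithelial genes, KRT8, KRT18 and CLDN4 were expressed and CDH1, ESRP1 and GRHL2 were under 1 TPM in all 4 groups, while KRT19 was expressed in SKNAS (means of 5.38 TPM in MYC-OFF and 2.96 in MYC-ON) and EPCAM in SKNAS MYC-ON. EPCAM averaged 0.125 TPM in SKNAS MYC-OFF and 1.16 in MYC-ON and was higher in 13 of 13 pairs with no overlap, whereas KRT8, KRT18 and CLDN4 were lower in 13 of 13. For these groups too, the share of all genes without overlap was not counted. The list reached sums of 1193 to 2883 TPM in SHEP and 321 to 1118 in SKNAS. Of 8 blood cell genes, CD68 was expressed in all groups, CD3E was at or near 0, and PTPRC, the leukocyte antigen CD45, averaged 80.4 TPM in SKNAS MYC-OFF cells and 21.5 in MYC-ON cells of that line, against values near 0 in SHEP; the sum of the list lay between 14.01 and 65.9 TPM in SHEP and between 27.4 and 313 in SKNAS. The part of other cell types in the levels below was not tested.

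Between the lines in MYC-OFF, the adrenergic transcription factors were higher in SKNAS and most mesenchymal genes were higher in SHEP. The p-values between the lines measure the spread of libraries in 2 SHEP series and 1 SKNAS series, and not of separate SKNAS cultures. A line and its experiment cannot be told apart. Where genes below are said not to overlap between the lines, the share of all genes without such overlap was not counted. PHOX2A, a homeodomain factor of noradrenergic neurons, had a lowest, median and highest level of 139, 235 and 287 TPM in SKNAS MYC-OFF. In SHEP it was listed at 0 in 27 of 28 MYC-OFF libraries and in all 28 MYC-ON libraries, so the lines did not overlap and no fold is given. HAND1, a basic helix-loop-helix factor, had 38.0, 112 and 148 TPM in SKNAS MYC-OFF and at most 0.0631 TPM in SHEP MYC-OFF. PHOX2A and HAND1 thus ranked among the abundant adrenergic transcripts of SKNAS. SOX11, an HMG-box factor of immature neurons, was at 2.42, 3.59 and 4.88 TPM in SKNAS MYC-OFF and listed at 0 in all 56 SHEP libraries. ISL1, a LIM-homeodomain factor, had means of 29.0 ± 8.41 TPM in SKNAS MYC-OFF and 0.588 ± 0.221 in SHEP MYC-OFF, and INSM1, a zinc finger factor of neuroendocrine cells, 1.14 ± 0.605 and 0 TPM. These factors were present in SKNAS and under 1 TPM in SHEP, so they could pass the filter only through SKNAS and had to differ.

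The remaining adrenergic factors were expressed in both lines. HAND2, the closest relative of HAND1, had a lowest, median and highest level of 11.2, 15.3 and 21.7 TPM in SHEP MYC-OFF and 65.9, 184 and 217 in SKNAS MYC-OFF. GATA2 lay between 13.01 and 21.4 TPM in SHEP and between 27.3 and 149 in SKNAS. GATA3, the paralog of GATA2, lay between 14.3 and 21.0 TPM in SHEP and between 23.3 and 82.7 in SKNAS. For TBX2, a T-box repressor, the lowest and highest levels were 7.82 and 14.4 TPM in SHEP and 46.4 and 282 in SKNAS. No SKNAS MYC-OFF library overlapped a SHEP MYC-OFF library for any of these 4 genes, and on the log2(TPM + 1) scale SKNAS was higher by 3.21 ± 0.11 for HAND2, 2.50 ± 0.15 for GATA2, 1.71 ± 0.11 for GATA3 and 4.17 ± 0.14 for TBX2 (SE; adjusted p by limma at most 1.01e-15). KLF7, a Krüppel-like factor of developing neurons, was the exception among the transcription factors: its means were 11.5 ± 2.14 TPM in SHEP and 5.97 ± 3.79 in SKNAS, a difference of -1.07 ± 0.17 (adjusted p = 8.16e-07) by limma.

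Among the adrenergic effectors, DDC, the decarboxylase that follows TH, had 14.3 ± 3.49 TPM in SKNAS MYC-OFF and 0.0467 ± 0.106 in SHEP MYC-OFF, and CHGA, a granin of secretory granules, 2.43 ± 2.17 and 0.00769 ± 0.0242 TPM. CHGB and GAP43 went the other way. CHGB, the second granin, had 1.99 ± 0.440 TPM in SHEP and 0.570 ± 0.297 in SKNAS, and GAP43, a growth cone protein, 1.79 ± 0.522 and 0.728 ± 0.394 TPM, with differences of -0.94 and -0.70 on the log2(TPM + 1) scale. Both were silent in SKNAS, so they passed the filter only through SHEP and had to differ, as DDC and CHGA, silent in SHEP, did through SKNAS.

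In the mesenchymal set, the factors did not all lie on the same side. PRRX1, a homeobox factor that can impose the mesenchymal state, had a lowest, median and highest level of 17.2, 71.8 and 108 TPM in SKNAS MYC-OFF and 0.106, 0.501 and 1.84 in SHEP MYC-OFF, with no overlap. TWIST1 was also higher in SKNAS, with 97.2 ± 34.1 TPM against 33.97 ± 3.23 in SHEP. SNAI1 was at 19.4 ± 9.39 and 7.48 ± 1.61 TPM, TBX18 at 23.5 ± 12.9 and 9.27 ± 1.56, and N-cadherin, encoded by CDH2, at 159.5 ± 64.5 and 102 ± 8.72. These 5 were called higher in SKNAS by limma, by 5.24, 1.38, 1.05, 1.01 and 0.49 on the log2(TPM + 1) scale, although PRRX1, silent in SHEP MYC-OFF, passed the filter only through SKNAS and had to differ.

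SHEP held the higher level of 9 mesenchymal genes. FN1, which encodes fibronectin of the extracellular matrix, had a lowest, median and highest level of 77.6, 364 and 509.6 TPM in SHEP MYC-OFF and 11.1, 15.1 and 22.8 in SKNAS MYC-OFF. RUNX2, a Runt-domain factor of bone-forming cells, had 26.2, 33.95 and 39.9 TPM in SHEP and 0.343, 0.980 and 1.80 in SKNAS. CD44, the hyaluronan receptor, had 161, 248 and 402 and 20.5, 38.8 and 47.2 TPM. For all 3 genes every SHEP library was above every SKNAS library, with differences, SKNAS minus SHEP, of -4.31 ± 0.13, -4.14 ± 0.080 and -2.83 ± 0.090 (log2(TPM + 1), SE; adjusted p by limma at most 1.89e-23). VIM, the intermediate filament of mesenchymal cells, had 3469 ± 367 TPM in SHEP and 1431 ± 387 in SKNAS. RUNX1 had 22.7 ± 4.92 and 4.79 ± 2.73 TPM, SOX9 23.9 ± 4.38 and 1.82 ± 0.614, SIX4 8.98 ± 1.29 and 1.68 ± 0.967, SNAI2 49.0 ± 12.3 and 20.8 ± 8.23, and ZEB2 20.9 ± 2.29 and 16.7 ± 5.13 TPM in SHEP and SKNAS. ZEB1, a repressor of epithelial genes, was not called, with 9.93 ± 1.67 TPM in SHEP, 11.3 ± 6.98 in SKNAS and a difference of -0.088 ± 0.18 (adjusted p = 0.656) by limma. With the library median in the model it was called higher in SKNAS, by 0.24.

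Over the genes that passed the filter in MYC-OFF (a mean of at least 1 TPM in either line), 34.3% were called higher and 45.2% lower in SKNAS, a call being an adjusted p of at most 0.05 by limma and a change of at least 0.15 on the log2(TPM + 1) scale. Of the 14 adrenergic genes that passed, 11 were called higher and 3 lower in SKNAS with a median difference of 2.33, and of the 15 mesenchymal genes 5 were higher and 9 lower with a median of -1.25, beside a median of -0.15 over all genes. Counting only the 19 members expressed in both lines, 8 were higher in SKNAS, 10 lower and ZEB1 was not called. In MYC-ON, where 28% of genes were called higher and 56.9% lower in SKNAS and the median over all genes was -0.46, the 11 adrenergic genes that passed split into 8 higher and 3 lower and the 15 mesenchymal genes into 4 higher and 10 lower. Of these, PHOX2A, HAND1, ISL1, SOX11 and DDC passed only through SKNAS and GAP43, RUNX2 and SIX4 only through SHEP, and the 18 expressed in both lines split into 7 higher, 10 lower and CDH2 not called (3 higher and 2 lower of the 5 adrenergic genes, 4 and 8 of the 13 mesenchymal genes). After rescaling by the median of ratios, the split over all genes in MYC-ON moved from 4389 higher and 8913 lower to 6527 and 6826, and that of the members from 12 and 13 to 15 and 11. HAND2, TBX2 and GATA2 differed by 1.46, 2.51 and 2.93 in MYC-ON, SKNAS minus SHEP, and FN1 and RUNX2 by -3.86 and -4.93. For GATA3 the difference was -0.28 ± 0.12 in MYC-ON, opposite to that in MYC-OFF, and became positive, at 0.20 to 0.42, with rescaled libraries, with the library median in the model or with only the high-median SKNAS libraries. ZEB2, at -0.29, and CDH2, at -0.28 and not called, also turned positive under those settings.

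In SHEP cells with active N-MYC, GATA2, HAND2, PRRX1, RUNX1, RUNX2, SNAI1 and SIX4 were higher and fibronectin, SNAI2, SOX9, ZEB2, CHGB and other members were lower than in MYC-OFF. Of 22 members tested, 7 were called higher and 11 lower in MYC-ON, where 33.0% of 14362 genes were called higher and 38.9% lower. The 7 adrenergic genes tested split into 2 higher (GATA2 and HAND2), 3 lower and 2 not called, with a median change of 0.0044, and the 15 mesenchymal genes into 5 higher, 8 lower and 2 not called, with a median of -0.16; the median over all genes was -0.036. Of the 34 members, GATA2 was the only member whose MYC-OFF and MYC-ON libraries did not overlap. How many of all genes had no overlap was not counted. The CTs of both series entered as replicates with CT in the model, so these p-values measure the spread between 2 replicate experiments and within them.

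GATA2 (ENSG00000179348, chr3:128479427-128493201 on GRCh38), a zinc finger factor of sympathetic neuron and blood development, had a lowest, median and highest level of 13.01, 16.1 and 21.4 TPM in SHEP MYC-OFF and 30.6, 40.3 and 52.1 in MYC-ON. Each of the 28 MYC-ON libraries was above its MYC-OFF partner of the same series and CT, and the change was 1.24 ± 0.035 (adjusted p = 8.79e-33) on the log2(TPM + 1) scale by limma. HAND2 went from 11.2, 15.3 and 21.7 to 19.4, 27.1 and 34.8 TPM, higher in 28 of 28 pairs although the groups overlapped, a change of 0.72 ± 0.051 (adjusted p = 2.44e-17) by limma. GATA3 stood at 17.1 ± 1.54 and 18.7 ± 2.70 TPM and its change of 0.12 ± 0.044 was under the size needed for a call, and TBX2 stood at 9.59 ± 1.46 and 9.67 ± 1.79 TPM with a change of 0.0044 ± 0.042. KLF7 fell from 11.5 ± 2.14 to 9.31 ± 2.37 TPM, a change of -0.29 ± 0.070 that was not called in series 1 alone (-0.18). CHGB fell from 1.99 ± 0.440 to 0.925 ± 0.271 TPM, below the level called silent, in all 28 pairs, and GAP43 from 1.79 ± 0.522 to 1.07 ± 0.349 TPM in 26 of 28 pairs, with changes of -0.63 ± 0.060 and -0.43 ± 0.064 (adjusted p by limma of 2.84e-13 and 7.80e-08).

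PRRX1 (ENSG00000116132, chr1:170662728-170739421) was the mesenchymal gene with the largest rise among the 15 tested. Its lowest, median and highest level went from 0.106, 0.501 and 1.84 TPM in MYC-OFF, where its mean counted as silent, to 1.44, 3.73 and 9.59 in MYC-ON. The libraries overlapped at the edges, all 28 pairs were higher in MYC-ON, and the change was 1.61 ± 0.10 (adjusted p = 3.06e-19) on the log2(TPM + 1) scale by limma; SKNAS stood at 67.7 TPM, above every SHEP library. SIX4, a homeobox factor of mesoderm and neural crest, went from 5.41, 9.02 and 11.7 to 8.78, 14.4 and 19.0 TPM and was higher in 27 of 28 pairs. RUNX1 rose from 22.7 ± 4.92 to 33.9 ± 6.37 TPM and RUNX2 from 33.8 ± 3.43 to 46.9 ± 9.30, each higher in 27 of 28 pairs. The changes were 0.62 ± 0.052 for SIX4, 0.56 ± 0.069 for RUNX1 and 0.44 ± 0.048 for RUNX2 (adjusted p by limma at most 6.20e-10). SNAI1 rose less, from 7.48 ± 1.61 to 8.93 ± 2.29 TPM, by 0.21 ± 0.067 (adjusted p = 0.00387) by limma, and was not called with series 2 alone (0.075) or with the 2 series means of each group as the replicates.

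FN1 (ENSG00000115414, chr2:215360440-215436073) was the member with the largest fall of the 22 tested. It had a lowest, median and highest level of 77.6, 364 and 509.6 TPM in SHEP MYC-OFF and 34.95, 69.3 and 97.4 in MYC-ON. A single MYC-OFF library, series 1 at CT24, reached into the range of MYC-ON, all 28 pairs were lower in MYC-ON, and the change was -2.24 ± 0.11 (adjusted p = 1.02e-23) on the log2(TPM + 1) scale by limma. Within series 1 the means were 279.7 ± 90.6 and 56.6 ± 10.7 TPM and within series 2 399 ± 95.8 and 79.1 ± 8.98. SNAI2, the zinc finger repressor also called Slug, fell from 13.1, 48.6 and 78.9 to 11.4, 29.3 and 56.2 TPM in 27 of 28 pairs, SOX9, an HMG-box factor of neural crest and cartilage, from 13.3, 24.2 and 30.5 to 11.1, 15.8 and 20.9 in all 28, and ZEB2 from 15.8, 20.9 and 26.0 to 10.5, 15.1 and 19.1 in all 28. These groups overlapped, with changes of -0.70 ± 0.077, -0.56 ± 0.051 and -0.43 ± 0.050 (adjusted p by limma at most 1.73e-10).

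Smaller falls were called for CDH2 (-0.20), TBX18 (-0.19), TWIST1 (-0.16) and ZEB1 (-0.16), each by limma with an adjusted p of at most 0.0221, and none of these 4 was called when the 2 series means of each group served as the replicates. With series 2 alone CDH2 (-0.13) and TBX18 (-0.059), with series 1 alone TWIST1 (-0.056) and with either series alone ZEB1 was not called. TWIST1 and ZEB1 were not called after the libraries were rescaled by the median of ratios either (-0.12 and -0.12). VIM, at 3469 ± 367 and 3439 ± 323 TPM, and CD44, at 259.7 ± 53.5 and 283 ± 82.2 TPM, were not called, with changes of -0.011 ± 0.038 and 0.10 ± 0.087. MEOX1, a homeobox factor of somites, was below the filter, with 0.0674, 0.656 and 1.48 TPM in SHEP MYC-OFF and 0, 0 and 0.125 in MYC-ON, where 15 of 28 libraries were listed at 0 and all 28 pairs were lower. ISL1 stood at 0.588 ± 0.221 and 0.838 ± 0.273 TPM and DDC at 0.0467 ± 0.106 and 0.374 ± 0.263, both silent in both groups. MEOX2, the paralog of MEOX1, did not exceed 0.0836 TPM in MYC-OFF and 0.0547 in MYC-ON libraries of SHEP or 0.0285 and 0 in those of SKNAS, and MEOX1 did not exceed 0.0720 TPM in SKNAS.

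**Figure D2:**
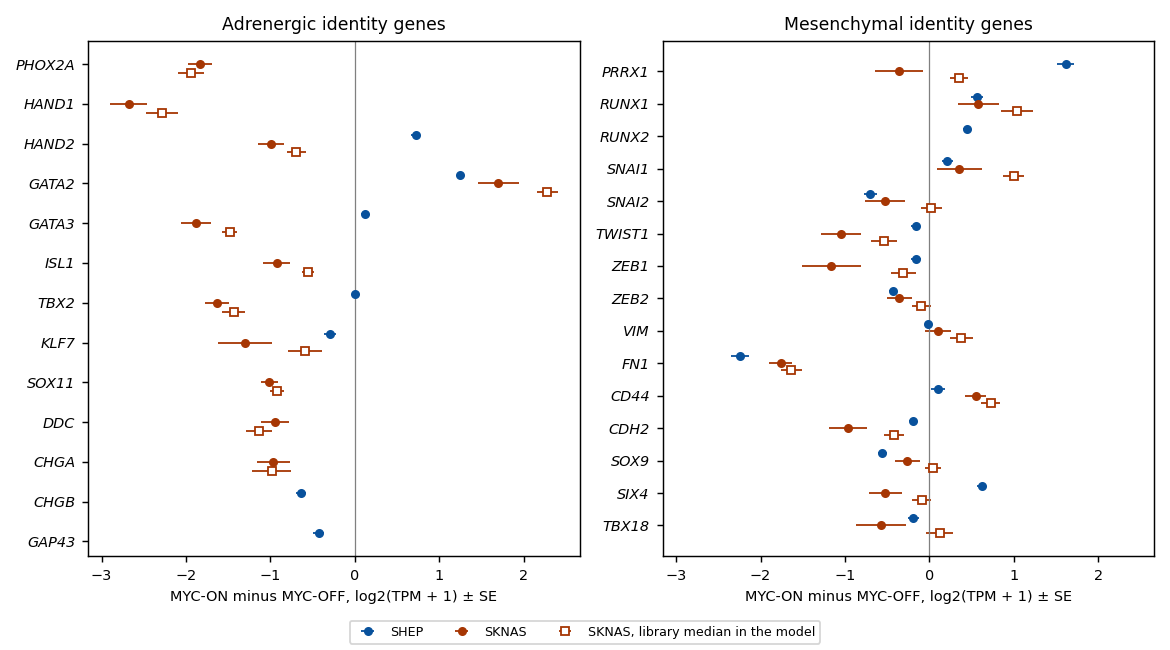
Difference between MYC-ON and MYC-OFF on the log2(TPM + 1) scale with its SE (horizontal bars) for the members tested in SHEP (blue) and SKNAS (brown), and in SKNAS with the library median in the model (open squares). GATA2 lies to the right of 0 and FN1 to the left in both lines, HAND2 lies on opposite sides, and PRRX1 in SKNAS crosses 0 when the library median enters.

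Promoter sequences were examined for the members with the largest rise and the largest fall of each set in SHEP among those changed by at least 0.66 on the log2(TPM + 1) scale, since N-MYC binds E-boxes. These were GATA2 (rise, adrenergic), PRRX1 (rise, mesenchymal) and FN1 (fall, mesenchymal); no adrenergic gene fell by that much. The stretch before the RefSeq start site is given 5′ to 3′ in the direction of the gene (GRCh38.p14, minus strand for both), with matches to the searched motifs in capitals, and the PRRX1 stretch is not printed because it lies inside the annotated 5′ end of other PRRX1 transcripts.
GATA2 at chr3:128493202-128493451: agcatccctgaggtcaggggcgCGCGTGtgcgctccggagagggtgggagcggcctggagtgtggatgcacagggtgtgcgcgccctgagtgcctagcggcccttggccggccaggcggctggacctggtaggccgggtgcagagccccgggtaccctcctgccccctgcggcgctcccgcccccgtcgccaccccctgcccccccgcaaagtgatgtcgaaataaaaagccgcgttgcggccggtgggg
FN1 at chr2:215436074-215436318: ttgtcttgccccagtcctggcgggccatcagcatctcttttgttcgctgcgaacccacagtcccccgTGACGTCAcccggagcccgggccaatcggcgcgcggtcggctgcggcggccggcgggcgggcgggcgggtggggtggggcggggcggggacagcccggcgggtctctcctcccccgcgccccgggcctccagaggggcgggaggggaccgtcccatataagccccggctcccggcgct
The canonical E-box CACGTG was found in neither stretch nor in that of PRRX1, on either strand. Over 35116 RefSeq windows of 250 bases before a start site, 6.34% held it. The 23 of 34 members with a window had 41 windows, and 2 of these held it, in GATA3 and KLF7. The E-box variant CACGCG, searched on both strands, was held by 9.72% of windows and by 6 of the 41 member windows. These were windows of GATA2, GATA3, KLF7, MEOX2, ZEB1 and ZEB2, with the reverse complement in the printed GATA2 stretch. FN1 and CHGA held TGACGTCA, the cyclic AMP response element, which is in 1.65% of windows and in 2 of the 41 member windows. A match is a description of letters in this window and not a binding site.

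In SKNAS cells with active N-MYC, 10 of the 11 adrenergic genes tested were lower than in MYC-OFF and GATA2 was higher. Of 25 members tested, 2 were called higher and 15 lower in MYC-ON, where 13.9% of 13886 genes were called higher and 34.2% lower and the median change over all genes was -0.29 on the log2(TPM + 1) scale. The adrenergic genes had a median change of -1.01, and all 11 calls had the same direction in a model with the library median and after rescaling, with medians of -0.99 and -0.84. The 14 mesenchymal genes split into 1 higher, 5 lower and 8 not called with a median of -0.44, and into 5 higher, 3 lower and 6 not called with a median of 0.035 when the library median was in the model. Over all genes the split moved likewise, from 1925 higher and 4751 lower to 3932 and 3598 with the library median and 3679 and 3451 after rescaling. These libraries form 1 time series, so the p-values measure the spread of its libraries and not of separate cultures.

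The clearest falls were those of PHOX2A (chr11:72239077-72245664), HAND1 (chr5:154474972-154478227) and SOX11. PHOX2A had a lowest, median and highest level of 139, 235 and 287 TPM in SKNAS MYC-OFF and 37.5, 64.3 and 118 in MYC-ON. HAND1 fell from 38.0, 112 and 148 to 4.18, 15.7 and 30.6 TPM, and SOX11 from 2.42, 3.59 and 4.88 to 0.670, 1.17 and 1.64. The MYC-OFF and MYC-ON libraries did not overlap for these 3 genes or for FN1, and all 13 pairs of the same CT were lower in MYC-ON. The share of all genes without overlap was not counted. The changes were -1.83 ± 0.14 (adjusted p = 8.59e-08) for PHOX2A, -2.68 ± 0.22 (adjusted p = 1.50e-07) for HAND1 and -1.01 ± 0.10 (adjusted p = 1.28e-06) for SOX11 by limma. With the library median in the model they were -1.94, -2.29 and -0.92.

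TBX2 fell from 46.4, 236 and 282 to 32.02, 59.5 and 95.8 TPM, GATA3 from 23.3, 66.3 and 82.7 to 6.28, 14.7 and 33.4 and HAND2 from 65.9, 184 and 217 to 31.8, 84.0 and 116 TPM. All 13 pairs were lower in MYC-ON for each, although the groups overlapped. Their changes were -1.64 ± 0.14, -1.88 ± 0.18 and -0.99 ± 0.15 (adjusted p by limma at most 7.36e-05), and -1.44, -1.48 and -0.69 with the library median. ISL1 went from 29.0 ± 8.41 to 14.8 ± 5.49 TPM, KLF7 from 5.97 ± 3.79 to 1.70 ± 1.60, DDC from 14.3 ± 3.49 to 7.07 ± 2.43 and CHGA from 2.43 ± 2.17 to 0.411 ± 0.201, with falls called for all 4 by limma (-0.93, -1.30, -0.94 and -0.97, or -0.56, -0.59, -1.14 and -0.99 with the library median). CHGA in MYC-ON and INSM1, which went from 1.14 ± 0.605 to 0.0790 ± 0.0833 TPM and was lower in all 13 pairs but below the filter, thereby became silent.

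GATA2 moved against the other adrenergic genes. Its lowest, median and highest level was 27.3, 131 and 149 TPM in SKNAS MYC-OFF and 102, 361 and 693 in MYC-ON, higher in 12 of 13 pairs, a change of 1.70 ± 0.24 (adjusted p = 4.09e-05) by limma and 2.28 with the library median. Within the libraries of high median it ranged from 125 to 149 TPM in MYC-OFF and 473 to 693 in MYC-ON, and within those of low median from 27.3 to 72.9 and 102 to 413. The ranges were thus apart inside both bands, and GATA2 passed PHOX2A, HAND2 and TBX2 to become the highest adrenergic transcript in SKNAS MYC-ON. PHOX2A, HAND1, GATA3, SOX11, DDC and FN1 also had ranges that were apart inside both bands, all lower in MYC-ON. These ranges rest on 3 MYC-ON libraries in the high band and 4 MYC-OFF libraries in the low band. The share of all genes with ranges apart inside both bands was not counted.

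Fibronectin fell in SKNAS too. FN1 had a lowest, median and highest level of 11.1, 15.1 and 22.8 TPM in MYC-OFF and 1.99, 4.20 and 4.85 in MYC-ON, a change of -1.76 ± 0.14 (adjusted p = 9.92e-08) by limma and -1.63 with the library median. TWIST1 fell from 33.0, 107 and 133 to 11.1, 48.8 and 81.3 TPM in 12 of 13 pairs, a change of -1.05 ± 0.23 (adjusted p = 0.00183) by limma and -0.54 with the library median. CD44 was the only mesenchymal gene called higher, with 20.5, 38.8 and 47.2 TPM in MYC-OFF and 34.3, 46.8 and 94.2 in MYC-ON, 12 of 13 pairs higher and a change of 0.55 ± 0.13 (adjusted p = 0.00236) by limma and 0.73 with the library median.

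The levels of several other mesenchymal genes ran with the library median. ZEB1 ranged from 8.28 to 23.4 TPM in MYC-OFF and 7.25 to 15.6 in MYC-ON among libraries of high median, and from 2.21 to 4.16 and 0.774 to 3.91 among those of low median. Its change of -1.16 ± 0.35 (adjusted p = 0.0131) by limma was -0.31 and not called with the library median. PRRX1 ranged from 53.0 to 108 and 90.6 to 143 TPM in the high band and from 17.2 to 40.9 and 17.2 to 52.9 in the low band, and its change of -0.36 ± 0.29 (adjusted p = 0.302) became 0.35 (adjusted p by limma of 0.00945) with the library median, in the other direction. CDH2 changed by -0.96 and SIX4 by -0.52, against -0.42 and -0.091 with the library median, and SIX4 was then not called. SNAI1 (0.35), RUNX1 (0.58) and VIM (0.10) were not called as fitted and were called higher with the library median (1.00, 1.04 and 0.38). SNAI2 went from 20.8 ± 8.23 to 15.8 ± 9.18 TPM, SOX9 from 1.82 ± 0.614 to 1.35 ± 0.643, ZEB2 from 16.7 ± 5.13 to 13.1 ± 4.42 and TBX18 from 23.5 ± 12.9 to 14.4 ± 9.04, with no call. RUNX2, at 1.01 ± 0.461 and 0.554 ± 0.407 TPM, had a line mean below the filter.

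**Figure D3:**
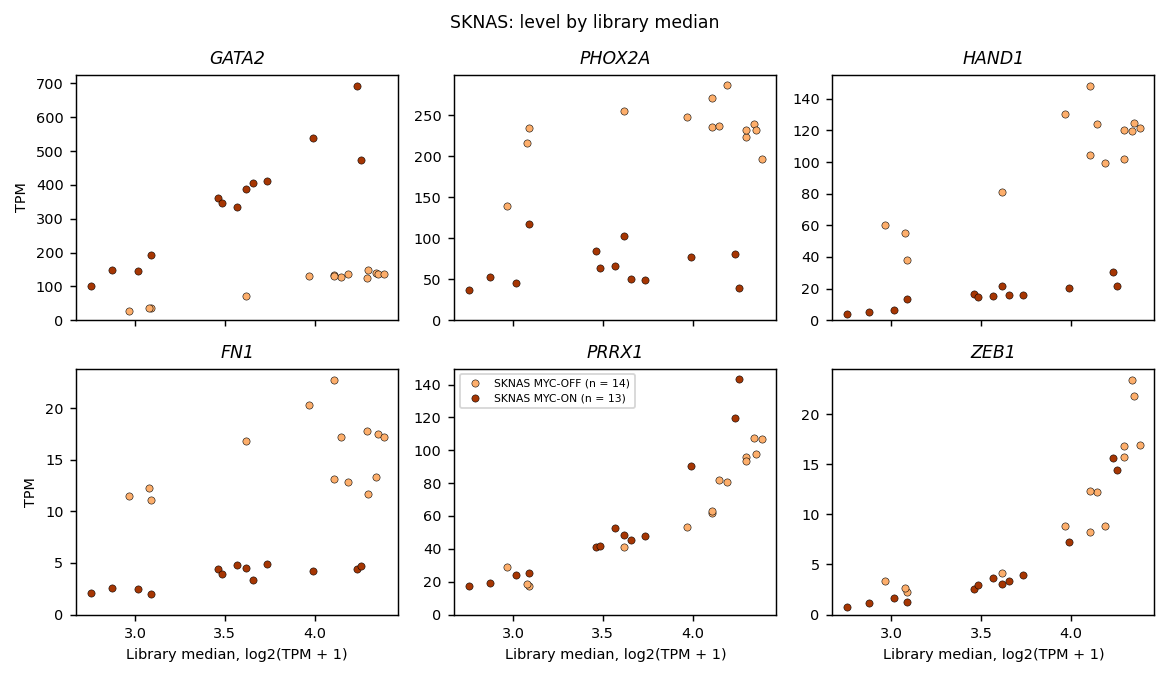
Level in TPM of 6 members in each of the 27 SKNAS libraries (points; MYC-OFF light, MYC-ON dark) against the library median of log2(TPM + 1). At any library median, GATA2 is higher and PHOX2A, HAND1 and FN1 are lower in MYC-ON, whereas PRRX1 and ZEB1 rise with the library median in both groups.

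The response of the identity genes to N-MYC differed between the lines for 20 of 28 members tested, as the SKNAS change minus the SHEP change in a common model. It was above 0 for 4 members, where 13.5% of 15942 genes were called above, and below 0 for 16, where 38.1% were called below and the median over all genes was -0.22. Among those below 0, PHOX2A, HAND1, ISL1, SOX11, DDC and CHGA were silent in SHEP and passed the filter only through SKNAS. RUNX2, also below 0, passed only through SHEP. After rescaling or with the library median in the model, 10 members were called above and 16 below, and over all genes the split moved from 2155 above and 6067 below to 3956 and 4040 after rescaling. HAND2 rose in SHEP, by 0.72, and fell in SKNAS, with a change of -0.99 there and a difference of -1.71 ± 0.12 (adjusted p = 1.99e-18) by limma and -1.49 with the library median. GATA3 (-2.00 ± 0.13) and TBX2 (-1.64 ± 0.11) fell in SKNAS and were not called in SHEP. PRRX1 rose in SHEP and was not called in SKNAS, with a difference of -1.98 ± 0.24 and -1.38 with the library median. SKNAS entered this model with 1 time series, so the p-values do not measure the spread between SKNAS cultures. The line and its experiment cannot be told apart here either.

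GATA2 rose more in SKNAS, by 0.45 ± 0.16 (adjusted p = 0.0154) by limma, a difference not called with either SHEP series left out. The differences for CD44 (0.45) and SOX9 (0.30) were likewise not called with either SHEP series left out. SOX9 did not rise in SKNAS: it fell in SHEP and was lower by less, and not called, in SKNAS as fitted. For PHOX2A, HAND1, SOX11 and CHGA, which were silent in SHEP, the difference, from -2.67 for HAND1 to -1.01 for SOX11, was close to the SKNAS change itself. ISL1 and DDC, also silent in SHEP, differed by -1.14 and -1.32 against SKNAS changes of -0.93 and -0.94. Without the filter their SHEP changes were 0.21 and 0.38. RUNX1 changed by 0.56 in SHEP, called, and by 0.58 in SKNAS, not called, with a difference of 0.018 ± 0.18. The SKNAS value was called at 1.04 with the library median and at 0.91 after rescaling, and with the library median the difference was called too (0.40). FN1 fell less in SKNAS on this scale, with a difference of 0.48 ± 0.18 (adjusted p = 0.0234) by limma that was not called with a pseudocount of 0.1 (0.26).

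Other genes of the same programs were taken from 2 further lists of 30 genes each. Of the other adrenergic genes, 8 passed the filter in SHEP, with 3 called higher and 3 lower, and 18 in SKNAS, with none higher and 15 lower and a median change of -1.23. Of the other mesenchymal genes, 5 were called higher and 21 lower of 28 tested in SHEP with a median of -0.58, and 1 higher and 20 lower of 27 tested in SKNAS with a median of -0.89. With the library median in the model the counts in SKNAS were 1 higher and 15 lower for the other adrenergic genes and 3 higher and 17 lower for the other mesenchymal genes. Of all genes tested, 33.0% were called higher and 38.9% lower in SHEP, and 13.9% and 34.2% in SKNAS. With the library median, 3932 of 13886 genes were called higher and 3598 lower in SKNAS.

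The other adrenergic genes changed by at least 0.66 on the log2(TPM + 1) scale in the same direction in both lines were L1CAM, a neural adhesion molecule, and SNAP25, a component of the synaptic release machinery. L1CAM had MYC-OFF and MYC-ON means of 7.53 ± 1.48 and 1.98 ± 0.828 TPM in SHEP and of 154 ± 80.9 and 26.0 ± 18.4 in SKNAS, changes of -1.54 and -2.50, and SNAP25 changed by -0.76 and -1.20 (log2(TPM + 1)). In the mesenchymal list 13 genes met the same size, and the 6 that ranked highest by the smaller of their changes in the 2 lines were TGFBI, a matrix protein induced by TGF-β (-1.90 in SHEP and -2.15 in SKNAS), LGALS1, which encodes galectin-1 (-1.77 and -1.66), IGFBP6 (-1.58 and -1.35), TWIST2 (1.36 and 1.17), the matrix glycoprotein tenascin C, TNC (-1.11 and -1.45), and annexin A2, ANXA2 (-1.02 and -1.52). TWIST2 was the only riser of these 6. Of all 14362 genes tested in SHEP, 1349 were called higher and 1632 lower by at least 0.66, and of 13886 in SKNAS 970 and 3306. LGALS1 had 4569 ± 422 and 1357 ± 280.0 TPM in MYC-OFF and MYC-ON cells of SHEP and 1432 ± 312 and 469 ± 172 in those of SKNAS.

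Over the time course, slopes were called for 6 of the 15 mesenchymal genes tested in SHEP MYC-OFF and for 7 of the 15 in MYC-ON. The slope over CT was fitted with 24 h terms and the series in the model, and is given on the log2(TPM + 1) scale per 24 h. In MYC-OFF 2 members were called rising and 4 falling of 22 tested, where 2.79% of genes were called rising and 5.06% falling, and all 6 were mesenchymal. In MYC-ON 5 were called rising and 5 falling, where 16.4% rose and 30.2% fell. Both directions together, 10 of 22 members were called in MYC-ON, near the share of all genes (6703 of 14362). After rescaling, 3269 genes rose and 3178 fell in MYC-ON against 2361 and 4342 as fitted, with 7 members rising and 3 falling, and in MYC-OFF 528 rose and 561 fell against 400 and 727, with the same member counts. The slopes of 12 members differed between MYC-OFF and MYC-ON, where 38.8% of genes did. With series 2 alone the called members numbered 2 in MYC-OFF, 6 in MYC-ON and 6 for the difference, and with series 1 alone 5, 11 and 11.

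FN1 rose along the MYC-OFF course, from 213 ± 104 TPM over the 6 libraries of CT24 to CT32 to 434 ± 64.2 over the 6 of CT68 to CT76, with a slope of 0.63 ± 0.080 (adjusted p = 2.30e-06) by limma. In MYC-ON it went from 63.5 ± 22.1 to 69.4 ± 9.73 TPM with a slope of 0.075 ± 0.056, not called, and its slope in the 2 series was 0.21, called in series 1 alone, and -0.061, not called. The difference of -0.56 ± 0.10 (adjusted p = 1.02e-05) by limma was -0.44 without CT24, where FN1 was at its lowest. SOX9 likewise rose in MYC-OFF, from 18.8 ± 4.47 to 28.2 ± 1.66 TPM, and went from 14.8 ± 2.70 to 13.5 ± 1.06 TPM in MYC-ON. Its slopes were 0.25, not called in series 2 alone (0.22), and -0.075, not called. Their difference was -0.33 ± 0.070 (adjusted p = 1.55e-04) by limma.

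CD44 fell in MYC-OFF, from 331 ± 48.7 to 229 ± 39.4 TPM, and rose in MYC-ON, from 254 ± 26.0 to 405 ± 67.5 TPM. Its slopes of -0.27 ± 0.045 and 0.41 ± 0.065 differed by 0.67 ± 0.081 (adjusted p = 1.93e-09) by limma, and each series showed both directions (-0.30 and -0.24 in MYC-OFF, 0.47 and 0.34 in MYC-ON). CD44, which was not called between the MYC states over the whole course, was thus lower in MYC-ON at the early CTs and higher at the late ones. RUNX1 had slopes of -0.22 and 0.19, both called, and VIM of -0.18, called, and 0.11, not called. The RUNX1 slope in MYC-OFF was not called in either series alone (-0.23 and -0.20) or without CT24 (-0.14). In MYC-ON it was not called in series 2 alone (0.11). The VIM slope in MYC-OFF was under the size needed for a call in series 2 alone (-0.14) and without CT24 (-0.15). RUNX2 rose in MYC-ON, from 36.7 ± 3.54 to 56.7 ± 10.2 TPM, and PRRX1 from 2.48 ± 0.821 to 5.46 ± 2.24 TPM, with slopes of 0.35 ± 0.044 and 0.54 ± 0.099; PRRX1 in MYC-OFF went from 0.731 ± 0.585 to 1.19 ± 0.534 TPM with a slope of 0.16 ± 0.092, not called.

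SNAI2 was at its lowest at CT24 in all 4 SHEP courses. In MYC-ON it was highest at CT28 in both series and went from 38.7 ± 20.2 TPM over the first 3 CTs to 18.2 ± 3.48 over the last 3. Its MYC-ON slope was -0.36 ± 0.13 (adjusted p = 0.0242) by limma, not called in either series alone (-0.33 and -0.38), and -0.73 without CT24. The MYC-OFF slope was 0.28 with and -0.089 without CT24. The difference between the MYC states was -0.63 and -0.64. TWIST1 (-0.22), TBX18 (-0.16), GAP43 (-0.27) and CHGB (-0.20) were called lower along the MYC-ON course and KLF7 (0.22) higher. Of these 5, GAP43 was called in each series alone. TWIST1 was not called in series 1 alone (-0.14), KLF7 in series 2 alone (0.082), CHGB in either (-0.18 and -0.21), and TBX18 in either (-0.14 and -0.17), after rescaling (-0.11) or without the filter. SNAI1 fell in MYC-OFF (-0.25, not called in series 2 alone), whereas its MYC-ON slope had opposite signs in the 2 series (0.30 and -0.23).

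**Figure D4:**
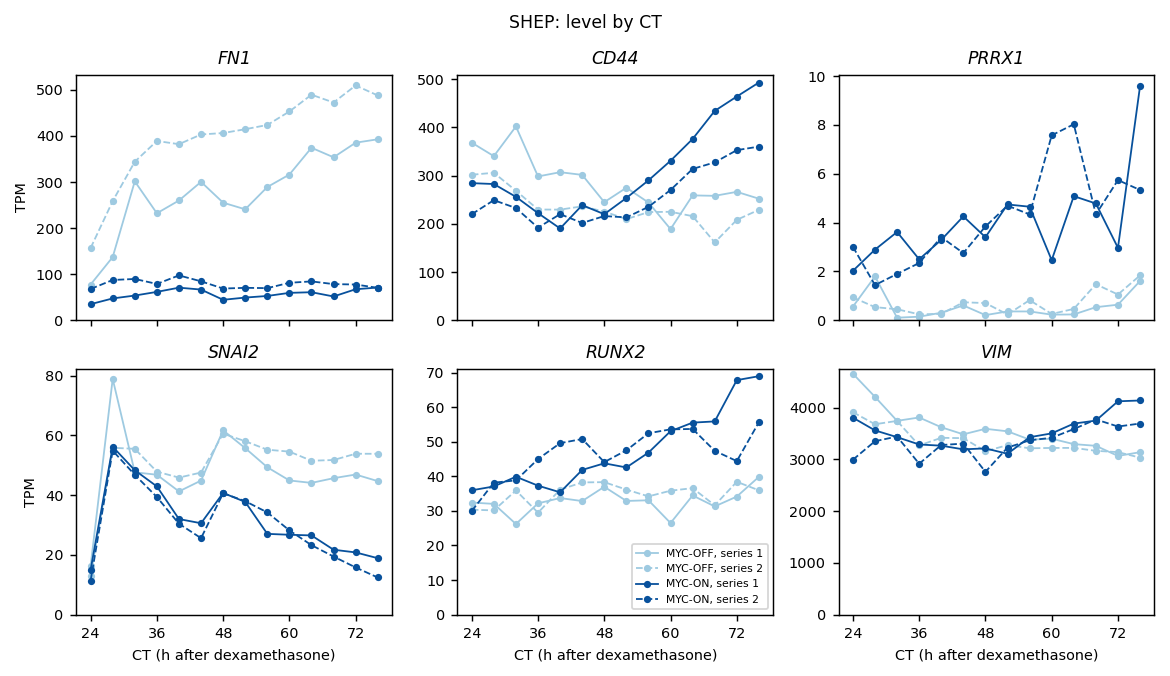
Level in TPM of 6 mesenchymal genes in SHEP against CT in hours, in MYC-OFF (light) and MYC-ON (dark), with series 1 as solid and series 2 as dashed lines. FN1 climbs in MYC-OFF, CD44 falls in MYC-OFF and climbs in MYC-ON, and SNAI2 in MYC-ON is highest at CT28 and ends near its CT24 level.

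No member was called rhythmic with a 24 h period in SHEP. Over all genes 0.0905% were called in MYC-OFF and 0.0139% in MYC-ON by limma. An unadjusted p under 0.05 was found for 5 of the 22 members in MYC-OFF and 7 in MYC-ON. Among all 14362 genes tested, 1446 in MYC-OFF and 1264 in MYC-ON had such a p. SOX9 had the lowest adjusted p among the members in both states, 0.243 in MYC-OFF and 0.279 in MYC-ON. Adrenergic genes had no called slope in MYC-OFF.

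Several members share a locus with an antisense transcript, and whether reads were assigned by strand is not given in the sources used here. HAND2-AS1 had MYC-OFF and MYC-ON means of 9.90 and 13.1 TPM in SHEP, and of 163 and 92.8 in SKNAS, the same order of the groups as for HAND2. TBX2-AS1 had 7.70 and 9.70 TPM in SHEP, and 102 and 58.8 in SKNAS. GATA2-AS1 had 16.3 and 10.9 TPM in SHEP and 20.7 and 6.41 in SKNAS, lower in MYC-ON where GATA2 was higher. GATA3-AS1 was at 8.48 and 9.29 TPM in SKNAS and under 1 TPM in SHEP, and ZEB1-AS1 lay between 2.97 and 6.03 TPM. The HAND2, TBX2, GATA2, GATA3 and ZEB1 values are uncertain to the extent that reads of the partners could be exchanged.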

How the data were processed

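RNA of 83 libraries of human SHEP and SKNAS cells was measured by polyA RNA-seq. The authors quantified reads with Salmon 1.3.0 against Gencode transcripts of GRCh38, summed them to genes with Tximport and deposited TPM values, the only unit used here, for 60237 genes. TPM keeps no depth, so the depth of a library is unknown and no counting interval is given. All per-sample columns were mapped to labels (0 unused), and no 2 columns were identical (highest correlation between libraries 0.993).

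Values were tested as log2(TPM + 1), a scale that understates the change of low genes, with limma 3.58.1 in R 4.3.3 and Benjamini-Hochberg adjustment over all genes with a mean of at least 1 TPM in the line (in either line where lines were compared). CT was a factor. A call needs an adjusted p of at most 0.05 and a change of at least 0.15. A larger size, at least 0.66, chose some of the named genes. CT trends and 24 h rhythms were fitted with a line and a cosine in CT and the series as a term. The fits were tested on simulated data. The interaction term gives the difference of the MYC effect between the lines.

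Members and lists were chosen with earlier results of these data known. Genes are named by a rule: all 34 members, and of each further list at most 6 genes changed by at least 0.66 the same way in both lines, by the smaller change; markers of other cell types and antisense partners are given by level only. Series numbers mark replicate experiments and so pair the SHEP libraries; over 14362 genes the series difference in MYC-OFF correlated with that in MYC-ON (Pearson r = 0.489). Alternatives were a pseudocount of 0.1, no filter, median-of-ratios rescaling, each SHEP series left out, the series as a block, series means as replicates, the library median as a covariate and SKNAS libraries of high median only. Some marker genes are not reported here. Gene positions are from Gencode 44 and promoters from RefSeq, both GRCh38.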

Additional observations from a re-analysis of the deposited data

Results flagged for a closer look

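The change with active N-MYC differed between SHEP and SKNAS for 20 of 28 members, where 8222 of 15942 genes were called. The values are the interaction term in limma over all genes (SKNAS change minus SHEP change on the log2(TPM + 1) scale). PHOX2A, HAND1, ISL1, SOX11, DDC and CHGA passed the filter only through SKNAS and RUNX2 only through SHEP. The differences for GATA2, SOX9 and CD44 were not called with either SHEP series left out. Among the adrenergic genes the difference was -2.673 for HAND1, -1.999 for GATA3, -1.831 for PHOX2A, -1.711 for HAND2, -1.642 for TBX2, -1.318 for DDC, -1.136 for ISL1, -1.049 for CHGA, -1.012 for SOX11, -1.008 for KLF7 and 0.454 for GATA2. Among the mesenchymal genes it was -1.978 for PRRX1, -1.141 for SIX4, -1.004 for ZEB1, -0.8835 for TWIST1, -0.8095 for RUNX2, -0.7635 for CDH2, 0.2952 for SOX9, 0.4477 for CD44 and 0.484 for FN1.

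Within SHEP, the slope over CT differed between MYC-ON and MYC-OFF for 12 of 22 members (MYC-ON slope minus MYC-OFF slope, log2(TPM + 1) per 24 h, by limma). Over all genes 5568 of 14362 were called. It was steeper upward in MYC-ON for CD44 (0.6746), RUNX1 (0.4036), PRRX1 (0.3769), KLF7 (0.3687), SNAI1 (0.2835), VIM (0.2826) and RUNX2 (0.2681). The difference was negative for SNAI2 (-0.6324), FN1 (-0.5581), SOX9 (-0.3276), CHGB (-0.3078) and TWIST1 (-0.2122). Of these 12, CD44, RUNX1, VIM and FN1 were called in each series alone and PRRX1 in neither. This comparison was added after the data were seen.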

How the results depend on the processing

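Of 1074 member values under alternatives, 930 kept their direction and their side of the threshold, 82 kept the direction and lost the call, 25 gained a call and 37 changed sign; the causes were not tested. With the series as a replicate block, 18 members and 10378 genes were called for the SHEP change with N-MYC against 18 and 10320 without it, and no member call changed. TPM keeps no depth and SKNAS has 1 series, so sampling error and spread between SKNAS cultures were not measured.

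With only SKNAS libraries of high median and CT as a factor, which leaves 1 residual degree of freedom, 6 members and 712 genes were called for the SKNAS change (17 and 6747 with CT as a line in the same libraries), and 12 members and 2602 genes for the difference between lines. That difference was called for 5050 to 5221 genes with a SHEP series left out. Without SHEP series 1, the CT trend was called for 2 members and 222 genes in MYC-OFF and for 6 members in MYC-ON, and the difference of trends for 6. With a series left out, these counts ran from 2 to 5, from 6 to 11 and from 6 to 11 members, and from 222 to 1367 genes in MYC-OFF. Rhythm was called by limma for 6 genes in MYC-OFF and 1 in MYC-ON without the filter, 7 and 1 with no replicate block, and 0 and 0 with either series left out.

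In the SHEP change with N-MYC, TBX2 ran from -0.044 to 0.053 with a series left out and was -0.0088 without CT24, and VIM became 0.032 after rescaling and 0.014 without CT24. In the SKNAS change, with the library median, with high-median libraries, and with those libraries and CT as a line, PRRX1 was 0.35, 0.45 and 0.47 and SNAI2 0.024, 0.10 and 0.16. ZEB2 was 0.0086 and 0.0038 in the last 2, SOX9 0.046 in the first and 0.0080 in the last, SIX4 0.038 with high-median libraries and TBX18 0.12 with the library median.

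For the difference between lines, CHGB was -0.26 with a pseudocount of 0.1, RUNX1 ran from -0.098 to 0.13 with a series left out, TBX18 was 0.20 with the library median, and RUNX1, ZEB1 and TBX18 were -0.051, 0.020 and 0.18 with high-median libraries. For SKNAS minus SHEP after rescaling, with the library median and with high-median libraries, ZEB1 in MYC-OFF was 0.047, 0.24 and 0.43, and in MYC-ON GATA3 was 0.20, 0.29 and 0.42, ZEB2 0.19, 0.088 and 0.22, and CDH2 0.23, 0.52 and 0.85. ZEB1 in MYC-ON was 0.015 with the library median and 0.47 with high-median libraries. The FN1 trend in MYC-ON ran from -0.061 to 0.21 with a series left out. The settings without CT24 and with CT as a line were chosen after seeing the data.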
